A study of Mus musculus with 6 samples.

Results

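Genes of the fibroblast growth factor (FGF) pathway and neuregulin 1 were followed in mammary epithelial cells (MECs) with and without oestrogen receptor α (ERα). MECs is the study's name for the sorted GFP+ cells, whose reads also held T-cell and leukocyte genes, given further on. Each level below is therefore that of a whole sorted population. The members were the rows of both deposited gene tables whose symbol was Fgf1, Fgfr1, Fgfr2, Fgfrl1 or Nrg1, which gave 5 genes of the 651 listed. They comprise 2 ligands, Fgf1 and Nrg1, and 3 receptors, Fgfr1, Fgfr2 and Fgfrl1. WT.GFP+ MECs came from mice with intact Esr1 and ERα-/-.GFP+ MECs from mice with a germ-line deletion of it, and donors of both genotypes carried an EGFP transgene under an actin promoter on a C57Bl6 background. The cells were placed intraductally in opposite glands of NSG females, an immunodeficient strain (NOD.Cg-Prkdcscid Il2rgtm1Wjl/SzJ) that lacks mature T, B and natural killer cells but keeps myeloid cells. The hosts were pregnant when GFP+ cells were sorted by FACS, and the ages of donors and hosts are not given in the sources used here. RNA of 3 samples per genotype was amplified from 10 ng with an oligo-dT, template-switching kit and sequenced as single-end reads of 85 nt.

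Each table row holds the authors' mean raw count of a genotype and the authors' mean of the log2 normalised count (log2 CPM, where CPM is the count scaled to a library of 1000000 reads). Values of single samples were not analysed here. No replicate spread can therefore be given and no test was run. Glands were pooled for cell suspensions, and the labels do not say whether the samples of a genotype came from separate animals. The tables list the genes past the authors' thresholds of a 2-fold change and a false discovery rate of 0.05. Every member is therefore a gene the authors called, and its presence in a table is not a further result. The columns name only a selection 1 and a selection 2. These were assigned to WT.GFP+ and ERα-/-.GFP+ by the direction stated in the study, so that the direction of each difference below rests on the study. The tables hold no Esr1 row, and the genotypes could not be checked by it. The depth, taken as the median ratio of mean count to mean CPM, was about 27200000 reads per WT.GFP+ sample and 29300000 reads per ERα-/-.GFP+ sample, a ratio of 1.08.

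FGFs are mostly secreted ligands that bind, together with heparan sulphate chains, to receptor tyrosine kinases and signal into the cell through the adaptor Frs2. In the mammary gland, stromal FGFs and epithelial Fgfr2 are known for their part in ductal growth and branching. Neuregulin 1 belongs to the EGF family, binds the receptors ErbB3 and ErbB4, and is known as a product of basal cells that acts on luminal cells.

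Relative to library size, all 5 members were lower in ERα-/-.GFP+ than in WT.GFP+ MECs. Relative to the summed basal markers, given further on, Fgfr1 and Fgfrl1 were higher and the counting intervals of Fgfr2 and Nrg1 held 0. Only listed markers, all of them lower, entered that sum, so a member lower by less than the sum comes out higher by construction. The differences of the members in mean log2 CPM lay between -2.14 for Fgf1 and -1.42 for Fgfrl1, with a median of -1.78. Of all listed genes, 86.9% were lower, so that 5 of 5 lower members stand against a background in which most genes went the same way. The median difference was -1.74 over the 566 lower genes and -1.65 over all 651. One member, Fgf1, was lower by more than 4-fold, against 24.6% of all listed genes. Without scaling for depth its log2 ratio was -1.96, so that 0 of the 5 members, and 130 of the 651 listed genes, passed 4-fold. The members were well counted: the mean count in WT.GFP+ MECs ranged from 1236 for Nrg1 to 3724 for Fgfr1, whereas the median over the lower genes was 437.

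**Figure D1:**
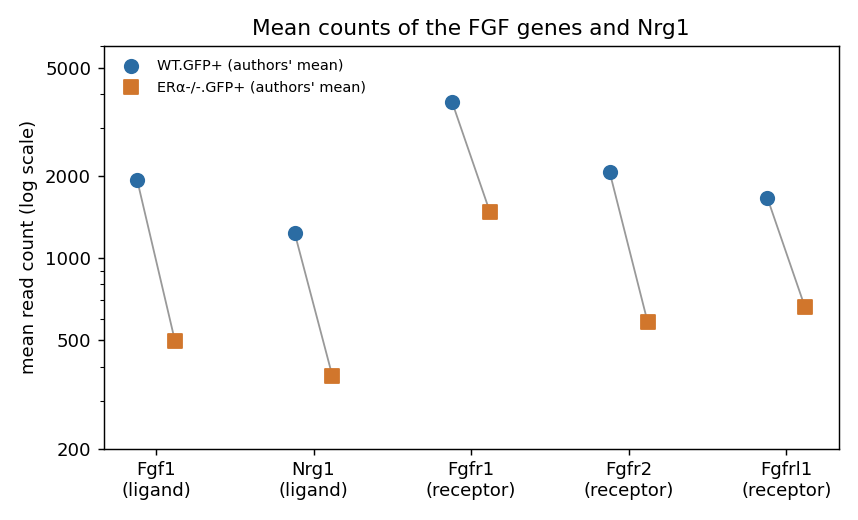
The authors' mean read count (log axis) of each ligand and receptor in WT.GFP+ (blue circles) and ERα-/-.GFP+ MECs (orange squares), with a line joining the means of a gene. Each ERα-/-.GFP+ mean lies below its WT.GFP+ mean, with the steepest line for Fgf1 and the shallowest for Fgfrl1 and Fgfr1, and no error is drawn because only means were used.

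Of the ligands, Fgf1 encodes acidic FGF, which can bind all of the FGF receptor tyrosine kinases. It had the largest difference of the members. The mean count was 1937 reads for WT.GFP+ against 497 for ERα-/-.GFP+ MECs, and the mean log2 CPM was 6.09 and 3.95. The level in ERα-/-.GFP+ MECs was 22.8% of that in WT.GFP+ MECs, or 4.40-fold lower. From the mean counts scaled for depth the log2 ratio was -2.07, with a 95% exact (Clopper-Pearson) interval of -2.15 to -1.99. This interval covers counting error only, not the variation between samples, and reads amplified without molecular identifiers are not independent molecules. By size of difference Fgf1 was at position 127 of the 566 lower genes. The gene lies on chromosome 18 of GRCm38 from 38838673 to 38929472 on the minus strand, is protein coding, and shares no exon base with another annotated gene.

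The other ligand, Nrg1, had mean counts of 1236 for WT.GFP+ against 368 for ERα-/-.GFP+ MECs, and mean log2 CPM of 5.39 and 3.61. It was 3.44-fold lower, and the log2 ratio of scaled counts was -1.86 with a counting interval of -1.95 to -1.76. Nrg1 was at position 262 of the lower genes, near the middle of that list. The gene spans 1069 kb on the minus strand of chromosome 8, from 31814551 to 32884029, and 12 of its 18 annotated transcripts are protein coding.

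A non-coding gene inside the Nrg1 locus was listed as well. Gm26578, a lincRNA of the opposite strand from 32008504 to 32015759, shares 482 exon bases with Nrg1, or 4.66% of the exon bases of Nrg1. Its mean counts were 331 for WT.GFP+ against 91 for ERα-/-.GFP+ MECs, a difference of -1.86 in mean log2 CPM beside -1.78 for Nrg1. The mean count of Gm26578 was 26.8% of that of Nrg1 for WT.GFP+ against 24.7% for ERα-/-.GFP+ MECs. Whether strand was used in counting is not given in the sources used here, so reads of the lincRNA and of Nrg1 cannot be told apart where they overlap. Gm26578 was singled out after its values were seen.

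Among the receptors, Fgfr1 and Fgfr2 encode receptor tyrosine kinases, whereas the product of Fgfrl1 binds FGFs but has no intracellular kinase domain. Fgfr2 had the largest difference of these genes. Its mean count was 2061 for WT.GFP+ against 584 for ERα-/-.GFP+ MECs, with mean log2 CPM of 6.20 and 4.27. The gene was 3.83-fold lower, and the log2 ratio of scaled counts was -1.93 with a counting interval of -2.01 to -1.85. It was at position 188 of the lower genes. Fgfr2 has epithelial and mesenchymal splice forms that differ in ligand binding, and counts per gene do not separate them.

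The annotated span of Fgfr2, on the minus strand of chromosome 7 from 130162451 to 133123350, rests on 1 long transcript. The other 26 of its 27 transcripts reach no further than 130266263, within 104 kb. The long transcript shares 314 exon bases, 3.04% of the exon bases of Fgfr2, with Ctbp2, a gene for a transcriptional corepressor that was also listed. Ctbp2 had mean counts of 1571 for WT.GFP+ against 716 for ERα-/-.GFP+ MECs, a difference of -1.29 in mean log2 CPM. How the authors counted reads of the shared bases is not given in the sources used here, so the value of Fgfr2 carries that uncertainty.

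Fgfr1 had the highest mean count of the members, with 3724 reads for WT.GFP+ against 1473 for ERα-/-.GFP+ MECs and mean log2 CPM of 7.08 and 5.61. It was 2.78-fold lower, at position 411 of the lower genes. The log2 ratio of scaled counts was -1.45, with a counting interval of -1.50 to -1.40. The gene lies on the plus strand of chromosome 8 from 25513654 to 25575718 and shares 164 exon bases with the antisense gene Gm16159, which was in neither table.

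Fgfrl1 had mean counts of 1665 for WT.GFP+ against 659 for ERα-/-.GFP+ MECs and mean log2 CPM of 5.93 and 4.51. It was 2.68-fold lower, the smallest difference of the members, at position 437 of the lower genes. Its log2 ratio of scaled counts was -1.45, with a counting interval of -1.52 to -1.37 that holds the interval of Fgfr1. The gene lies on the plus strand of chromosome 5 from 108692382 to 108706924.

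RefSeq promoter windows are shown for Fgfr2 and Fgfrl1 because sequences were at hand for these members only. The windows run from 250 bases before to 50 after the start of the RefSeq gene in GRCm38.p6, on the strand of the gene, and capitals mark CpG dinucleotides. RefSeq sequences were matched for 2 of the 5 members. The window of Fgfr2 is chr7:130266759-130267058 on the minus strand, and that of Fgfrl1 is chr5:108693979-108694278 on the plus strand. The window of Fgfr2 holds the start of 0 of its 27 GENCODE transcripts, the nearest of which lies 496 bases outside it, whereas that of Fgfrl1 holds the start of 2 of 5.
Fgfr2: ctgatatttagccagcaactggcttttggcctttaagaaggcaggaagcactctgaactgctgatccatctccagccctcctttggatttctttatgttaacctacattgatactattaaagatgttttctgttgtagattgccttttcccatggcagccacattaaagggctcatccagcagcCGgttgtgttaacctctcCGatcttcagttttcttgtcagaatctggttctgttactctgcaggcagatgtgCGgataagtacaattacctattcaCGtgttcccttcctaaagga
Fgfrl1: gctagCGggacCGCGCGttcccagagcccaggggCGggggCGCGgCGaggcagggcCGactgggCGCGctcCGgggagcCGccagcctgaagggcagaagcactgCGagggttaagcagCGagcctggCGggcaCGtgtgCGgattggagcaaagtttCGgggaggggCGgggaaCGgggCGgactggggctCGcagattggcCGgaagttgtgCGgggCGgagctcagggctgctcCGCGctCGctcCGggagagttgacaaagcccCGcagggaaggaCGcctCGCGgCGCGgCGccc

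The window of Fgfr2 had 4 CpG dinucleotides and 43.7% G and C, whereas that of Fgfrl1 had 37 and 73.7%. Over 32851 promoters of the same length the medians were 7 CpG dinucleotides and 52.7%, and 94.4% of the promoters had fewer CpG dinucleotides than that of Fgfrl1. A single arm of the oestrogen response element, GGTCA on either strand (TGACC in reverse), was found in 40.5% of the promoters and in neither window. The full element, GGTCA and TGACC spaced by 3 bases, was in 0.07% of the promoters and in neither window. These letters are absent from the windows shown, and nothing was examined outside them, which for Fgfr2 leaves out the GENCODE starts.

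Set in order, the members were lower by decreasing amounts from Fgf1 through Fgfr2, Nrg1 and Fgfr1 to Fgfrl1. The counting intervals of Fgf1 and Fgfr2 overlapped, and so did those of Fgfr2 and Nrg1 and those of Fgfr1 and Fgfrl1. Those of Nrg1 and Fgfr1 did not, and Nrg1 minus Fgfr1 was -0.31 in mean log2 CPM. Counting intervals leave out the variation between samples, so neither an overlap nor its absence tests whether members differ. The mean difference was -1.96 for the ligands and -1.61 for the receptors, so that ligands minus receptors gave -0.35 on the log2 scale. This division is not clean, since the receptor Fgfr2 was lower by more than the ligand Nrg1. Without Nrg1 the value was -0.52, and without Fgfrl1 it was -0.25. Within the reads of the receptors, the share of Fgfr2 was 27.7% for WT.GFP+ against 21.5% for ERα-/-.GFP+ MECs, while that of Fgfrl1 was 22.4% and 24.3%.

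**Figure D2:**
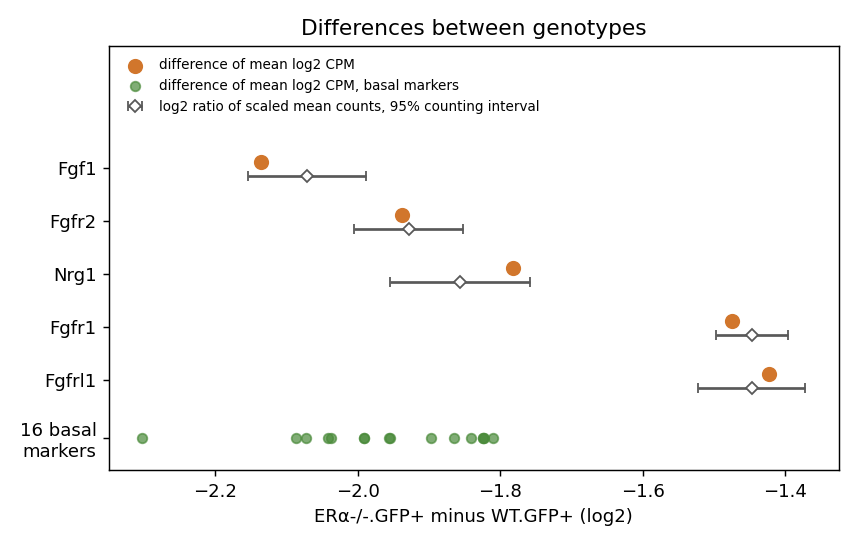
Difference between ERα-/-.GFP+ and WT.GFP+ MECs on the log2 scale for each member, as the difference of the authors' mean log2 CPM (orange) and as the log2 ratio of scaled mean counts with its 95% counting interval (diamonds, bars). The green points are the 16 listed basal markers, between -2.30 and -1.81, which hold the values of Fgf1 and Fgfr2 but not those of Nrg1, Fgfr1 and Fgfrl1 in mean log2 CPM.

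Levels of different genes were compared per length, as the mean count scaled to CPM and divided by the kilobases of annotated exon. In WT.GFP+ MECs this level was 22.0 for Fgfrl1, 13.9 for Fgfr1, 13.0 for Fgf1, 7.34 for Fgfr2 and 4.39 for Nrg1. In ERα-/-.GFP+ MECs the order was the same, at 8.07, 5.09, 3.10, 1.93 and 1.21. The level of the ligand Fgf1 was 0.94 times that of Fgfr1 for WT.GFP+ against 0.61 times for ERα-/-.GFP+ MECs. These ratios also depend on the length used. By longest transcript Fgf1 had 17.9 and Fgfr1 27.2 in WT.GFP+ MECs, and 4.26 and 9.97 in ERα-/-.GFP+ MECs. The order depends on the length used: with the longest transcript of each gene, Fgfr1 had 27.2 and Fgfrl1 26.3 in WT.GFP+ MECs, and in ERα-/-.GFP+ MECs Fgfr2 had 4.50 and Fgf1 4.26. The median level per length of the genes lower in ERα-/-.GFP+ MECs was 3.21 in WT.GFP+, so that all members lay above it.

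**Figure D3:**
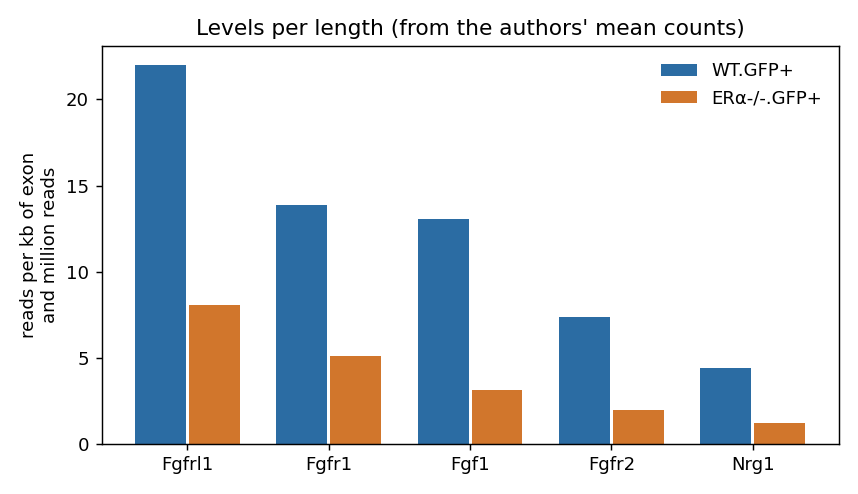
Level per length (CPM per kilobase of annotated exon) of each member in WT.GFP+ (blue) and ERα-/-.GFP+ MECs (orange), computed from the authors' mean counts. Fgfrl1 has the tallest bars at 22.0 and 8.07 and Nrg1 the lowest at 4.39 and 1.21.

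The means themselves hold indirect information on how even the samples were. For each gene an excess was taken as the log2 of its mean count scaled by depth, minus its mean log2 CPM. It grows with the spread between samples, and also moves with their library sizes. The depth is a median ratio of mean count to mean CPM over genes, so the excess centres near 0 and can be negative. This excess was compared over the 326 lower genes whose mean count reached 100 for each genotype, where its median was 0.01 for WT.GFP+ against 0.03 for ERα-/-.GFP+ MECs. For Nrg1 in WT.GFP+ MECs it was 0.11, larger than in 96.9% of these genes, and for Fgf1 in ERα-/-.GFP+ MECs it was 0.13, larger than in 95.4%. The excess of Fgf1 in WT.GFP+ MECs was 0.07, larger than in 87.7%. For Fgfrl1 it was 0.01 and -0.02, at or under the median of the genes. The excess was thus larger for Fgf1 in both genotypes, and for Nrg1 in WT.GFP+ MECs, than for most of these genes. Whether this reflects uneven samples was not tested, since no values of single samples were used.

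Other genes of the pathways were taken from 8 lists of 98 genes in all, the members included. Of these genes 9 were listed, 9 as lower and 0 as higher, so that 4 genes besides the members were found among 93. Since 86.9% of all listed genes were lower, their direction is near that of the tables as a whole, and the share of all tested genes that was listed was not analysed here. Of 22 FGF ligands only Fgf1 was listed, and of 5 FGF receptors Fgfr3 and Fgfr4 were in neither table. A gene in neither table may have changed by less, varied more or been counted too little, and its level was not analysed here.

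Among 20 heparan sulphate proteoglycans and enzymes, 2 were listed. Sdc4 encodes syndecan 4, a transmembrane proteoglycan that can present FGFs to their receptors. Its mean counts were 9059 for WT.GFP+ against 3924 for ERα-/-.GFP+ MECs, a difference of -1.43 in mean log2 CPM. Gpc6 encodes the membrane-anchored glypican 6 and had mean counts of 1540 and 450 and a difference of -1.86.

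Downstream of the receptors, 0 of 17 adaptor and effector genes, Frs2 among them, and 1 of 12 feedback and target genes were listed. That gene was Etv1, an ETS transcription factor, with mean counts of 118 for WT.GFP+ against 35.7 for ERα-/-.GFP+ MECs and a difference of -1.74. The feedback genes Spry1, Spry2, Spry4 and Dusp6, which are often read as a measure of FGF receptor activity, were in neither table. A list of 7 co-receptors and binding proteins, such as Klb and Fgfbp1, had 0 listed genes.

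In the EGF family, 2 of 11 ligands were listed. Beside Nrg1 this was Tgfa, a ligand of the EGF receptor, with mean counts of 759 for WT.GFP+ against 318 for ERα-/-.GFP+ MECs and a difference of -1.33. None of the 4 ErbB receptors, among them Erbb3 and Erbb4, to which neuregulin 1 binds, was listed.

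Basal and myoepithelial markers went in the same direction as the members. Of 18 basal and myoepithelial markers 16 were listed, each as lower, while Itga6 and Itgb4 were in neither table. Of all listed genes 86.9% were lower, and the share of all tested genes that was listed was not analysed here. The marker lists were chosen with earlier results of these data known. Differences of the 16 listed markers lay between -2.30 for Col17a1, a hemidesmosomal collagen, and -1.81 for Jag2, a Notch ligand, with a median of -1.96. The summed level of these 16 markers was 7715 CPM for WT.GFP+ against 2036 CPM for ERα-/-.GFP+ MECs, or 3.79-fold lower. Of the 16 markers 1 was lower by more than Fgf1 and 9 by more than Fgfr2. In mean log2 CPM all 16 were lower by more than Nrg1, Fgfr1 and Fgfrl1. In the log2 ratio of scaled counts, where the markers lay between -2.27 and -1.75, 11 of them were lower by more than Nrg1 and 5 by less, so that Nrg1 was inside their range, while all 16 remained below Fgfr1 and Fgfrl1. In these sorted populations, fewer cells of a type and less RNA per cell cannot be told apart.

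The sum of the basal markers rests on the 16 listed ones, all called lower by the authors. A gene lower by less than this sum therefore comes out higher against it. Counted per 1000 reads of the basal markers, Fgfr2 had 9.82 reads for WT.GFP+ against 9.78 for ERα-/-.GFP+ MECs, a ratio of 0.996. The ratio was 0.902 for Fgf1 and 1.05 for Nrg1. For Fgfr1 it was 1.39, from 17.8 to 24.7 reads, and for Fgfrl1 it was 1.39, from 7.94 to 11.0 reads. As log2 ratios to the sum with 95% counting intervals, Fgfr1 was at 0.47 (0.42 to 0.53) and Fgfrl1 at 0.47 (0.40 to 0.55). Against the sum both were higher in ERα-/-.GFP+ MECs, whereas Fgf1 was lower at -0.15 (-0.23 to -0.07). The intervals of Nrg1, -0.03 to 0.16, and of Fgfr2, -0.08 to 0.07, held 0. These intervals take the sum as fixed and leave out the spread among markers and samples. In the log2 ratio of scaled counts Fgf1 was inside the range of the single markers, -2.27 to -1.75, with 1 lower by more and 15 by less. The part of the basal cells in the differences of the members was not tested.

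T-cell and leukocyte markers went the other way. Of 15 such genes 9 were listed, all as higher, between 1.05 for Rac2 and 1.27 for Prf1, whereas 13.1% of all listed genes were higher. The summed level of the 9 genes was 3632 CPM for WT.GFP+ against 7974 CPM for ERα-/-.GFP+ MECs. Reads of such genes were thus present in the sorted cells of both genotypes, and the levels of the members are not those of epithelial cells alone. The defining genes Ptprc, Cd3d, Cd3e and Cd3g were in neither table. Of 16 luminal markers Pgr alone was listed, at a difference of -1.82, and lists of 6 fibroblast, 5 endothelial and 5 adipocyte markers had 0 listed genes. The part of these cells in the differences of the members was not tested.

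**Figure D4:**
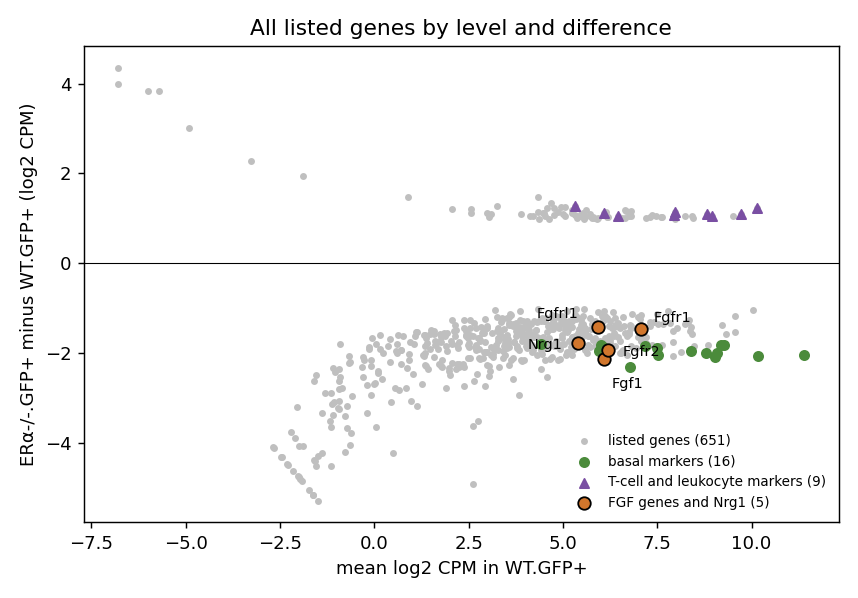
Mean log2 CPM in WT.GFP+ MECs (horizontal) against the difference between genotypes in mean log2 CPM (vertical) for the 651 listed genes, with the members in orange, 16 basal markers in green and 9 T-cell and leukocyte markers in purple. The members lie at levels of 5.39 to 7.08 within the band of lower genes, and no listed gene lies close to 0 because only called genes are in the tables.

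The listed genes most like each member were found by the distance between their pairs of mean log2 CPM, which are 2 values per gene and thus a coarse measure. Nearest to Fgf1 were Reln, which encodes the secreted glycoprotein reelin, at a distance of 0.06, and Mme, a cell surface peptidase, also at 0.06. Nearest to Fgfr2 were Galnt18, a glycosyltransferase, at 0.14 and the basal transcription factor Snai2 at 0.15. Tmem132a at 0.07 and Gyltl1b at 0.12 were nearest to Nrg1. Nearest to Fgfr1 were Bcar1 at 0.08 and Tns1 at 0.10, which both encode proteins of focal adhesions. Fgfrl1 lay closest to Pard3, a polarity gene, at 0.09 and to Ctbp2 at 0.10.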

How the data were processed

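RNA of sorted GFP+ cells was measured in 3 WT.GFP+ and 3 ERα-/-.GFP+ samples. Per the study, reads were mapped to mm10 through HTSstation, ASAP retained the top 90% of genes by expression, and the authors called genes with edgeR. The counter, annotation and use of strand are not given in the sources used here. The authors deposited, for called genes, mean raw counts (each value times 3 was a whole number) and mean log2 CPM per genotype. Columns with the authors' fold changes, p-values and FDR were not used. Differences were the mean log2 CPM of ERα-/-.GFP+ minus that of WT.GFP+. Depth came from genes whose mean count reached 1000, 220 in WT.GFP+ and 140 in ERα-/-.GFP+. Counting intervals were checked on simulated counts with counting error alone, which leaves out variation between samples and amplification. The excess was checked on simulated log2 values without library sizes or an estimated depth, so the check does not cover those. Positions, exons and overlaps came from GENCODE M21 (GRCm38, the build of mm10), which held 650 of the 651 identifiers. Named genes were the members, listed pathway genes, the extreme listed genes of each marker list and the 2 genes nearest to each member; Gm26578 and Ctbp2 as an overlapping gene, Itga6, Itgb4 and other unlisted genes were named after their values or absence were seen. The members and lists were chosen with earlier results of these data known. Figures were drawn with matplotlib 3.10.9 and values computed with scipy 1.17.1, pandas 2.3.3 and numpy 2.4.6 under Python 3.11.15. Alternatives were other scalings, a minimum count, a pseudocount of 10 reads and another gene length.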

Additional observations from a re-analysis of the deposited data

How the results depend on the processing

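All 5 members were lower under each of the 4 alternative scales, depth estimates or pseudocounts planned. With a depth ratio of 1.08 and mean counts of 368 or more, these settings could hardly change a sign. With no scaling for depth the log2 differences were -1.96 for Fgf1, -1.82 for Fgfr2, -1.34 for Fgfr1 and -1.34 for Fgfrl1, which leaves Fgf1 short of 4-fold, and with 10 reads added to each mean that of Fgf1 was -2.05. A scaling relative to the summed basal markers was added after seeing the data. Its values were -0.15 for Fgf1, -0.0065 for Fgfr2, 0.066 for Nrg1, 0.47 for Fgfr1 and 0.47 for Fgfrl1. The last 3 changed sign, Nrg1 within counting error. This scale uses only markers listed as lower, so a member lower by less than their sum changes sign by construction. The cause of the differences was not tested. Ligands minus receptors gave -0.25 without Fgfrl1 and -0.52 without Nrg1. Of the lower genes, 77.6% had a smaller difference than Fgf1, 66.8% than Fgfr2 and 27.4% than Fgfr1. With a minimum mean count of 10 for each genotype, which leaves fewer genes, these shares were 89.8%, 77.7% and 32.4%. With the longest transcript as length, the level per length in WT.GFP+ and ERα-/-.GFP+ was 17.9 and 4.26 for Fgf1, 17.1 and 4.50 for Fgfr2, 8.39 and 2.32 for Nrg1, 27.2 and 9.97 for Fgfr1, and 26.3 and 9.64 for Fgfrl1. No paired analysis was possible because the tables hold means per genotype. The genotypes share only replicate number 2, but the labels do not say whether that number marks a host. Fits without each replicate were not run, again because only means were used.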
